A study of Mus musculus with 2 samples.

Results

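Ganglion cell markers are 10 genes used to recognise retinal ganglion cells: the POU4F transcription factors Pou4f1, Pou4f2 and Pou4f3, the transcription factor Isl2, the RNA-binding protein gene Rbpms, Sncg, Thy1, and the neurofilament genes Nefl, Nefm and Nefh. Their probes were found by matching the RefSeq accession of each non-control probe to a gene symbol. This gave 13 probes for the 10 genes, out of 55669 probes and 20666 named genes. Rbpms had 3 probes, Nefh had 2 and the other 8 genes had 1 each. The study hybridised RNA of mouse retina at postnatal day 14 to one-colour Agilent arrays, with 1 array for retina labelled Mef2d KO and 1 for wild-type (WT) retina. Mef2d is a gene of the MEF2 transcription factor family, and the comparison asks how retinal expression differs without it. The Mef2d allele, the strain, the sex and the number of animals behind each array are not stated in the labels. Because each genotype has a single array, no difference could be set against a spread between replicates and no p-value was computed.

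Ganglion cells are the output neurons of the retina, and their axons form the optic nerve. The POU4F factors, also known as Brn3 factors, switch on and maintain genes of ganglion cell identity, axon growth and survival, and Isl2 marks a subset whose axons cross to the other side of the brain. Rbpms and Sncg are widely used to label the cells in tissue, Thy1 is a glycoprotein of their surface, and the neurofilament light, medium and heavy chains build the cytoskeleton of their long axons. Several of these genes are not private to ganglion cells. Horizontal cells also contain neurofilaments, T cells of the mouse carry Thy1, and smooth muscle expresses Rbpms.

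The ganglion cell markers were nearly alike on both arrays. None of the 10 genes was at least 2-fold lower or higher on the Mef2d KO array, and 9 of them lay within 0.2 of 0 on the log2 scale. Isl2 was the exception, with a difference of 0.45 (1.36-fold). All differences are log2 values, Mef2d KO minus WT. Among all 16176 named genes well above background on both arrays, 2.36% were at least 2-fold apart (1.74% lower and 0.618% higher on the Mef2d KO array) and 34.2% were more than 0.2 apart in either direction. The limit of 0.2 was chosen after the values were seen and is about the modelled error of a difference between 1 spot on each array. The measured SD of such differences over replicate spots was smaller, at a median of 0.061 above a level of -3. The share more than 0.2 apart was smaller among brighter genes, at 39.3% at levels of -3 to -1, 28.1% at -1 to 1, 22.0% at 1 to 3 and 21.2% above 3. With 10 genes, neither count sets the markers apart from other genes at their levels.

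A level here is log2 of the processed signal minus the array's own 75th percentile, which was an intensity of 858 on the Mef2d KO array and 807 on the WT array. The scanner software called 69.6% of spots well above background on the Mef2d KO array and 75.5% in WT, with no saturated spot on either. Errors written as ±, unless given as an SD, are those of the difference. They combine the scanner software's error model for the spots of a probe over both arrays, and leave out the variation between animals. The 13 marker probes were well above background on both arrays, so no member was lost to a filter. Photoreceptor genes that define retina (Crx, Gnat1 and Sag) were well above background on both arrays too, with differences of 0.028, -0.43 and -0.82. The Mef2d probes did not mark the knockout: they differed by 0.43 ± 0.20 and 0.14 ± 0.21, and the labels do not say whether they fall inside the deletion, so they check nothing. The array is therefore the one labelled Mef2d KO throughout. Both probes of Xist, the RNA of the inactive X chromosome in females, were not well above background in WT and had signals at least 51.7-fold and 26.4-fold higher for Mef2d KO. The Y-linked genes Eif2s3y and Ddx3y were well above background on both arrays, with intensities of 4238 and 1372 on the Mef2d KO array and 5105 and 1777 in WT (differences -0.36 and -0.46). Genotype and sex composition cannot be told apart on these arrays. None of the 10 markers lies on X or Y. By the GRCm38.p6 annotation, Pou4f2 and Rbpms are on chromosome 8, Isl2 and Thy1 on 9, Nefh on 11, Pou4f1, Sncg, Nefl and Nefm on 14, and Pou4f3 on 18. In whole retina, fewer ganglion cells and less RNA per cell cannot be told apart.

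**Figure D1:**
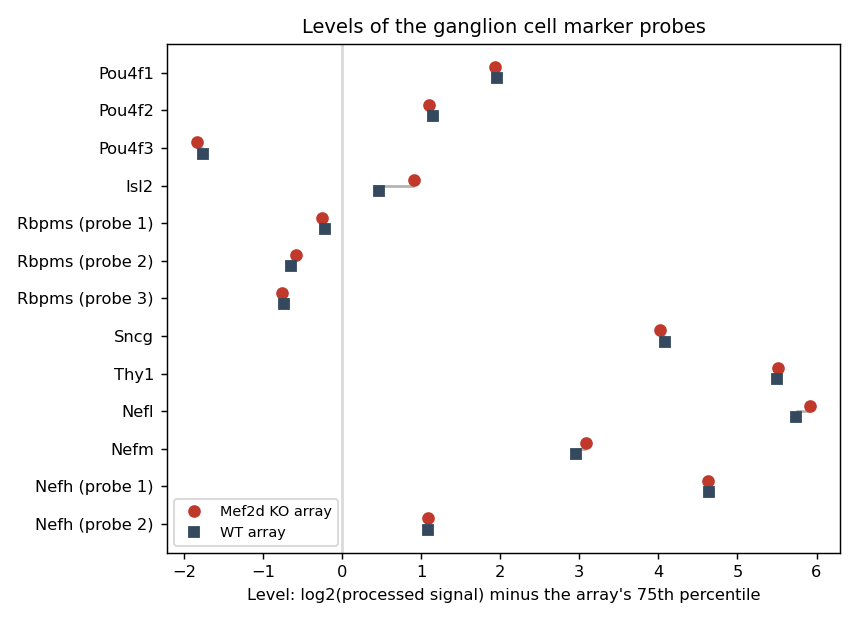
Level of each of the 13 marker probes on the Mef2d KO array (circles) and the WT array (squares), as log2 of the processed signal relative to the array's 75th percentile. Probes of 1 gene are numbered from bright to dim. Each row is a different probe, so only the gap within a row can be read, and Isl2, at 0.91 and 0.46, has the widest gap.

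The promoter tables held 4 of the 10 markers. The promoters of Isl2, the marker with the widest difference, and of Pou4f2, a ganglion cell transcription factor with a small one, are shown side by side. Each runs from 250 bases before to 50 after the gene's start, as RefSeq gives it on GRCm38.p6. That of Isl2 is chr9:55540899-55541198 on the plus strand and that of Pou4f2 is chr8:78436598-78436897 on the minus strand. Capitals mark a cyclic AMP response element, TGACGTCA.
Isl2: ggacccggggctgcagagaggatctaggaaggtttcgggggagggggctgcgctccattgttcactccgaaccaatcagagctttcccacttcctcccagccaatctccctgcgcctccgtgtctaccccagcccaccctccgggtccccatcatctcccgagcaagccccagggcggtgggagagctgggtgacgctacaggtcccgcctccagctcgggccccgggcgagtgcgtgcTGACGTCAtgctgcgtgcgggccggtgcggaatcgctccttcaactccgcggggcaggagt
Pou4f2: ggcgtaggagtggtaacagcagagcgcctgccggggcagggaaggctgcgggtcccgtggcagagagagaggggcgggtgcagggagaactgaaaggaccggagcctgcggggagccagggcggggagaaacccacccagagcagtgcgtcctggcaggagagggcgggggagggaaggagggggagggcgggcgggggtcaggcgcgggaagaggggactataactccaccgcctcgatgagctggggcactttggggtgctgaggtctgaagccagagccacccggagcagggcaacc
Both are rich in G and C, at 67.3% for Isl2 and 69.7% for Pou4f2, against a median of 52.7% over 32851 promoters of 300 bases. Both strands were searched for 3 motifs, and no matches overlapped in these promoters. A loose pattern for MEF2 sites, CTA and TAG with any 4 bases between them, was in none of the 4 marker promoters and in 3.69% of all promoters. Other forms of the site were not searched. The TATA box TATAAA was in none of the 4 and in 13.6% of all. The cyclic AMP response element began 11 bases before the start of Isl2. It was in 1 of the 4 promoters, that of Isl2, and in 1.79% of all promoters. This motif was chosen after the Isl2 sequence was read, so the match is a description only.

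The 3 POU4F factors differed little between the arrays. Pou4f1 had an intensity of 3271 on the Mef2d KO array, against 3139 in WT, which after scaling is a difference of -0.028 ± 0.20. Pou4f2, which drives ganglion cell differentiation and axon growth, had 1838 on the Mef2d KO array, against 1795 in WT (difference -0.053 ± 0.20). Pou4f3, the member of the family best known from hair cells of the ear, had 241 on the Mef2d KO array, against 239 in WT (difference -0.077 ± 0.21). The raw intensities were slightly greater on the Mef2d KO array for the 3 genes, and the differences are negative because that array's 75th percentile was greater too; with each array scaled to its median they became 0.15, 0.13 and 0.10. The spread among the 3 differences (SD 0.025) was far below the error of any of them.

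Isl2 had the widest difference of the 10 markers. Its single probe had an intensity of 1614 on the Mef2d KO array, against 1114 in WT, a difference of 0.45 ± 0.20. Among the 500 named genes nearest to it in level, the median difference was 0.014 and the range from the 5th to the 95th percentile ran from -0.33 to 0.40, with 96.0% of these genes below the value of Isl2. Over all named genes read on both arrays, 3.62% had a difference as high as Isl2 or higher. The value stayed between 0.38 and 0.63 under the 11 processing alternatives, positive in each. Several of these could only repeat 0.45, because Isl2 had 1 probe with 1 spot on each array. They were the series table, averaging of probes, the changed filters and outlier spots kept. No second Isl2 probe was available to check the value. Isl1, the paralog that acts with Pou4f2 in ganglion cells and is also present in amacrine and bipolar cells, differed by -0.12 ± 0.066 (0.059 with median scaling).

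Rbpms, Sncg and Thy1 were alike on both arrays. The 3 Rbpms probes had intensities of 722, 572 and 507 on the Mef2d KO array, against 693, 515 and 487 in WT. Their differences were -0.028, 0.065 and -0.028, each with an error of about 0.20, so the probes of this gene differed from each other by less than their errors. Sncg, a synuclein abundant in axons, had an intensity of 13901 on the Mef2d KO array, against 13651 in WT (difference -0.061 ± 0.20). Thy1 had 39153 on the Mef2d KO array, against 36552 in WT (difference 0.012 ± 0.20). For Sncg and Thy1, as for Rbpms, the values on both arrays lay closer together than the modelled error of their difference. The sign of each rests on the scaling, and with median scaling the differences of the brightest Rbpms probe, Sncg and Thy1 were 0.15, 0.12 and 0.19.

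A paralog of Sncg did not share its value. Sncb had an intensity of 637 on the Mef2d KO array, against 1015 in WT (difference -0.76 ± 0.20), within 2-fold. Its product, beta-synuclein, is a presynaptic protein of many neurons and no ganglion cell marker.

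**Figure D2:**
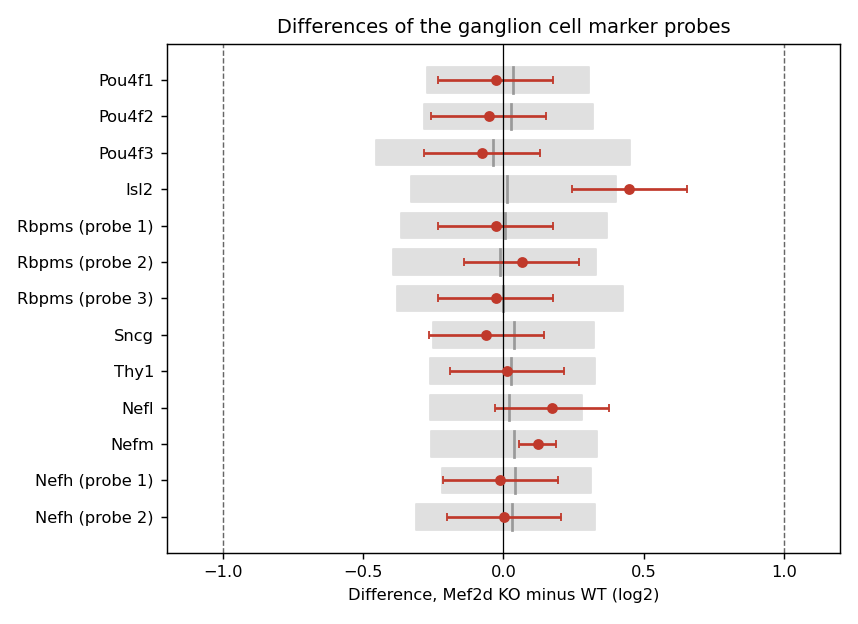
Difference of each marker probe, Mef2d KO minus WT on the log2 scale, with the scanner error model as error bars, over grey bands from the 5th to the 95th percentile of the 500 named genes nearest in level (grey tick, their median). Dashed lines mark 2-fold. The point of Isl2 at 0.45 lies just outside its band, which ends at 0.40, and the other 12 points lie inside theirs. By its definition each band leaves out 5% of its genes on either side. The signs of points close to 0 depend on the scaling, since median scaling adds 0.18 to every point.

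The neurofilament chains had small differences. Nefl, the light chain that forms the core of the filament, had an intensity of 51764 on the Mef2d KO array, against 43202 in WT (difference 0.17 ± 0.20). Nefm, the medium chain, averaged 7257 over 10 spots on the Mef2d KO array, against 6275 over 9 spots in WT (difference 0.12 ± 0.066). Nefh, the heavy chain with the heavily phosphorylated tail, had 21251 by its brighter probe on the Mef2d KO array, against 20151 in WT (difference -0.011 ± 0.20). The dimmer Nefh probe had 1830 on the Mef2d KO array, against 1720 in WT (difference 0.002 ± 0.20). Thus 2 of the 3 chains had positive differences under each of the 11 alternatives, and Nefh was near 0 except with median scaling (0.17). Nefl and Nefm are adjacent, with 0 protein-coding genes between them in the GRCm38.p6 annotation, while Nefh is on another chromosome. Each of these differences lay inside the range of genes at a like level, which for Nefl ran from -0.26 to 0.28 and for Nefm from -0.26 to 0.33.

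Nefm was printed 10 times across each array, which shows the precision of 1 marker directly. Of the 10 positions, 9 were kept on both arrays, and 1 was left out because its WT spot had been marked as an outlier. The kept spots ran from 6911 to 7516 (median 7252) on the Mef2d KO array, against 6023 to 6507 (median 6369) in WT. As levels they averaged 3.08 ± 0.039 on the Mef2d KO array and 2.96 ± 0.043 in WT (SD over 9 spots each). The lowest Mef2d KO spot and the highest WT spot were both at 3.01. The difference between spots at the same position was 0.12 ± 0.046 (SD, 9 positions) and positive at 9 of 9 positions. These spots measure 1 RNA sample per genotype, so they give the error of the array and not that of the animals. The SD of the difference was well below the 0.20 that the error model gives for a difference between single spots. Over the probes with replicate spots, 432 in all, the median SD of the difference was 0.061 above a level of -3.

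**Figure D3:**
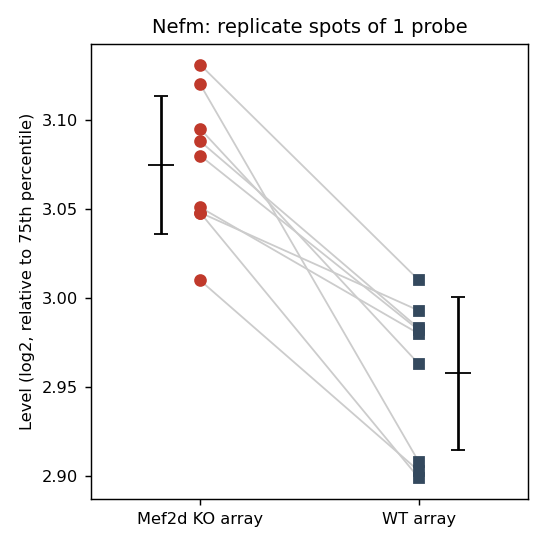
Level of Nefm at the 9 positions kept on both arrays, Mef2d KO on the left and WT on the right, with lines joining spots at the same position and black bars for the mean ± SD over spots. The means are 3.08 on the Mef2d KO array and 2.96 in WT, and all 9 lines slope down towards WT. The vertical axis does not start at 0.

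Taken as a group, the 10 markers had a median difference of -0.019, beside -0.006 over all named genes read on both arrays. Of the 10, 6 had a negative difference, beside 51.2% of all named genes. With median scaling 0 of 10 were negative, beside 22.5% of all named genes. That setting moved the median of all genes to 0.17 and that of the markers to 0.16, so relative to all genes the markers stayed at -0.013. Without Isl2 the differences ran from -0.077 to 0.17, with an SD of 0.086 over 9 genes. Dim and bright markers alike were near 0: Pou4f3, at a level of -1.83 on the Mef2d KO array and -1.75 in WT, and Thy1, at 5.51 on the Mef2d KO array and 5.50 in WT, were both within 0.1 of 0.

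Other transcription factors found in ganglion cells also had mostly small differences, read in whole retina and not in those cells alone. Of 24 listed genes, 21 were well above background on both arrays and none was 2-fold apart. Their median was 0.067, beside -0.006 over all named genes. Of the 21, 7 were negative (1 with median scaling), beside 51.2% of all named genes (22.5% with median scaling). Ebf4 had the most negative difference (-0.19, and -0.011 with median scaling), followed by Isl1. The most positive were Atoh7, the proneural factor that starts ganglion cell production (0.51 ± 0.25), and Bcl11b, a zinc finger factor of projection neurons (0.40 ± 0.21, and 0.26 with normexp background). Atoh7 was dim, with an intensity of 58 on the Mef2d KO array and 38 in WT, and its difference was 0.84 with cyclic loess and 0.17 with normexp background and 75th percentile scaling.

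Genes of ganglion cell types and transmission, again read in whole retina, were also within 2-fold. Of 24 listed, 22 were read on both arrays, with a median of 0.016 and 10 negative differences (0 with median scaling). The negative share of all named genes was 51.2% (22.5% with median scaling). Rbpms2, a close relative of Rbpms, had an intensity of 11235 on the Mef2d KO array, against 10855 in WT (difference -0.038 ± 0.20, and 0.14 with median scaling). Slc17a6, the vesicular glutamate transporter with which ganglion cells signal, had 3239 on the Mef2d KO array, against 2515 in WT (difference 0.28 ± 0.20). Opn4, the melanopsin of light-sensitive ganglion cells, differed by -0.16 ± 0.21, and Igf1 by -0.14 ± 0.14, and both changed sign with median scaling (0.017 and 0.034). Mmp17, a membrane-bound metalloprotease and marker of a direction-selective type, had the most positive difference of the list, at 2601 on the Mef2d KO array and 1426 in WT (0.78 ± 0.20). Penk, the enkephalin precursor, which amacrine cells make as well, differed by 0.50 ± 0.20. Hoxd10 was read in WT alone and Fstl4 on neither array.

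Genes of the axonal cytoskeleton and of axon growth were mostly close to 0. All 24 listed genes were read on both arrays, and none was 2-fold apart by its brightest probe. The median was -0.029 with 14 negative differences (2 with median scaling). Over all named genes, 51.2% of differences were negative (22.5% with median scaling). Ina, the internexin that assembles with the neurofilament chains, differed by -0.089 ± 0.20 (0.089 with median scaling). Prph, the gene of the filament protein peripherin, differed by 0.49 ± 0.21, with an intensity of 551 on the Mef2d KO array and 370 in WT. Tubb3, the neuronal tubulin used to stain ganglion cells, differed by 0.14 ± 0.20, and Gap43, a growth cone protein, by -0.067 ± 0.20 (0.11 with median scaling). At the ends of the list were Ank3 (-0.40), Map1b (-0.18, and -0.004 with median scaling) and Nfasc (0.47), the first and last of which organise the axon initial segment. The dimmer probe of Kif5a, an axonal motor, differed by -1.04, against -0.020 for its brighter probe, so the probes of that gene disagree.

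**Figure D4:**
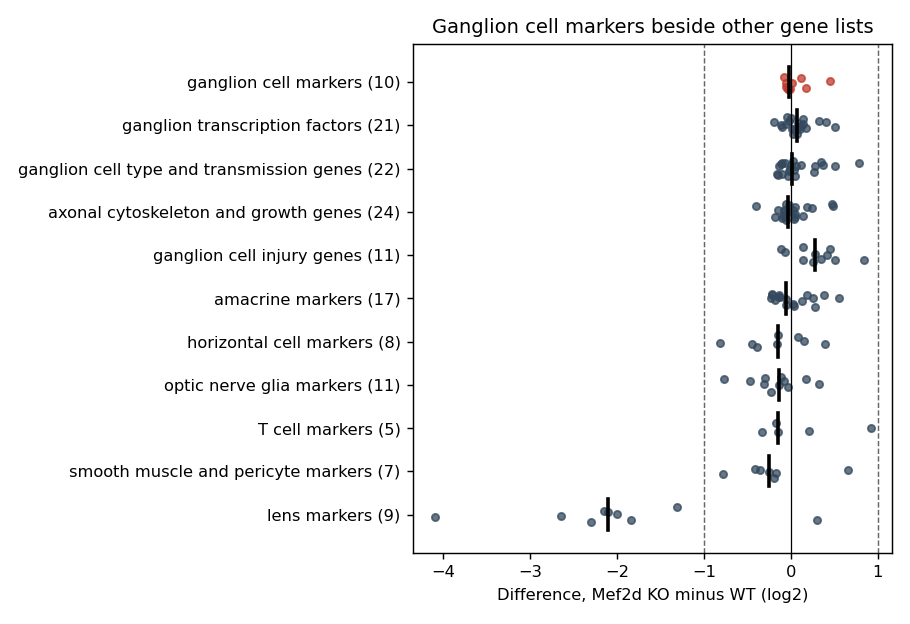
Difference of each gene read on both arrays, Mef2d KO minus WT on the log2 scale, for the 10 ganglion cell markers (top row) and 10 other gene lists, with the number of genes in brackets. Black ticks are medians and dashed lines mark 2-fold. Of these lists, lens markers alone hold genes past 2-fold (8 of 9). With median scaling every point lies 0.18 further right, and the medians of the markers and of the axonal, amacrine, horizontal, glial and T cell lists change from negative to positive.

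Markers of the other cells that express these genes were read beside them. Amacrine markers, 17 of 17 read on both arrays, had a median of -0.053 (0.13 with median scaling) and summed levels of 180.3 on the Mef2d KO array and 179.7 in WT. A summed level adds the linear signals of a list's genes, each divided by the array's 75th percentile. The most negative amacrine genes were Th (-0.23) and Gad1 (-0.22), and the most positive Npy (0.56) and Chat (0.38). Horizontal cell markers, 8 of 8 read, had a median of -0.15 (0.026 with median scaling) and summed levels of 83.4 on the Mef2d KO array and 71.6 in WT. The direction of that sum rests on Ndrg1: without it, a choice made after seeing the data, the sums of the other 7 genes were 23.8 on the Mef2d KO array and 26.1 in WT. Their ends were the dim Gja10 (-0.81, and -0.29 with normexp background) and Calb1 (-0.45) on the negative side and Ndrg1 (0.39) and Lhx1 (0.15) on the positive side.

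Optic nerve glia markers, which would accompany a piece of the nerve, were read for 11 of 13 genes, while Olig1 and Olig2 were not above background on either array. Their median was -0.13 (0.044 with median scaling) and their summed levels were 16.6 on the Mef2d KO array and 16.8 in WT. Whether this RNA came from attached nerve or from glia within the retina was not tested. The dim Pax2 (-0.77, and -0.26 with normexp background) and Aldh1l1 (-0.48) stood at one end and the myelin gene Mbp (0.33, with -0.13 for another probe) and the glial calcium-binding protein gene S100b (0.17) at the other. T cell markers, relevant to Thy1, were read on both arrays for 5 of 8 genes. Cd3d and Cd2 were on neither and Cd3g was in WT alone, and the summed levels were 5.57 on the Mef2d KO array and 6.01 in WT. That sum is mostly Cd4, with intensities of 3570 on the Mef2d KO array and 3728 in WT. The next brightest gene, Cd3e, had 586 on the Mef2d KO array and 623 in WT. Among those read, Cd5 differed by -0.34 (-0.14 with normexp background and -0.077 with cyclic loess), Cd3e by -0.18 (0.003 with median scaling), and Lck by 0.21. The dim Cd8a differed by 0.92, passed 2-fold with median scaling, quantile normalization and cyclic loess, and was at 0.41 with normexp background. Smooth muscle and pericyte markers, relevant to Rbpms, were read for 7 of 8 genes and had a median of -0.25 (-0.071 with median scaling), with summed levels of 5.09 on the Mef2d KO array and 6.14 in WT. The most negative as reported were the dim Myh11 (-0.78, with -0.39 under normexp background and -0.36 under cyclic loess) and Tagln (-0.41). The dim Cnn1 had the only positive difference as reported (0.65, with 0.32 under normexp background and 0.95 under cyclic loess). Rbpms was near 0 beside them, and Thy1 near 0 beside the T cell genes.

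Among the 10 other lists, lens markers alone held genes past 2-fold that were well above background on both arrays. At least 2-fold lower for Mef2d KO were 8 of the 9 lens markers that both arrays detected, and the summed levels were 38.3 on the Mef2d KO array and 169.4 in WT. The 8 were the crystallin genes Cryaa (-2.15), Cryba1 (-2.30), Cryba4 (-1.84), Crybb1 (-2.00), Crybb2 (-2.64) and Crygs (-2.10), the lens channel gene Mip (-4.09) and the lens filament gene Bfsp2 (-1.31). Bfsp1, the partner of Bfsp2, differed by 0.30. The ganglion cell markers, at -0.077 to 0.45, did not follow the lens genes, and the part of lens RNA in any single marker was not tested.

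**Figure D5:**
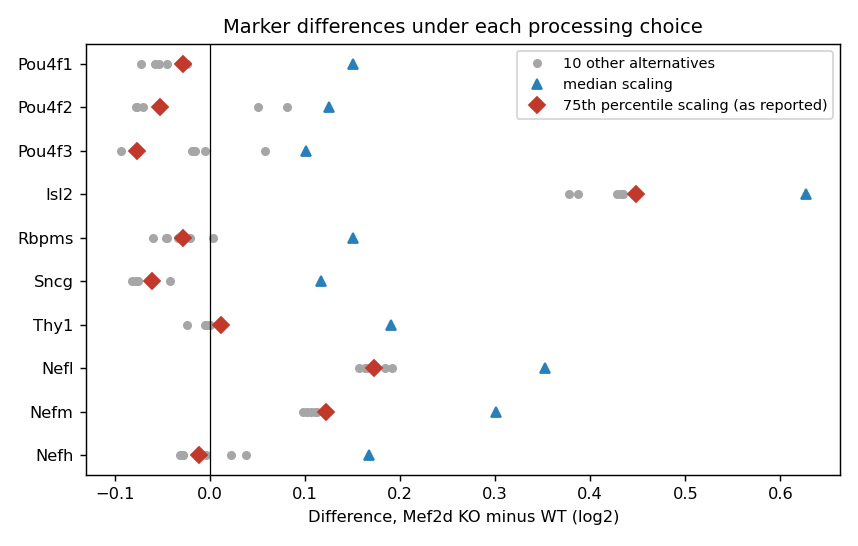
Difference of each marker, Mef2d KO minus WT on the log2 scale, as reported with 75th percentile scaling (diamonds), with median scaling (triangles) and with 10 other processing alternatives (grey points). Isl2, Nefl and Nefm are positive at each setting, Pou4f1, Pou4f2, Pou4f3, Rbpms, Sncg and Nefh change from negative to positive with median scaling, some of them with other alternatives as well, and Thy1 is on either side of 0.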

How the data were processed

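Total RNA of retina, amplified and labelled with Cy3, was hybridised to 1 array per genotype, per the labels' protocols. Per the file headers, the intensity of each spot was background-subtracted and detrended by Agilent Feature Extraction, version 10.10.1.1. In the series table the authors deposited, these intensities are scaled by a factor of 1.76 for Mef2d KO and 1.88 for WT, of unstated origin. It is linear and not centred, with column medians of 136.6 and 155.1.

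Control spots and outlier spots (126 on the Mef2d KO array and 106 on WT) were left out, and spots of a probe were averaged on the log2 scale. Of the probes, 27244 (48.9%) were named by accession without version, from a GRCm38.p6 table. The array design names mm9, so that table gave the chromosome and the order of genes and no gene coordinates, and the promoters printed are placed on GRCm38.p6. The files hold no gene name column. Where a gene had several probes, the one of highest mean level stood for it. The members, the 10 lists (8 to 24 genes each), the rule for named genes and the tests were chosen with earlier results of these data known. The rule named the markers, Mef2d, 8 fixed genes, and in each list the genes past 2-fold or else the 2 most negative and 2 most positive. Kif5a, Hoxd10, Fstl4, Bfsp1, Cd4 and genes not above background were named in addition, after their values were seen. Some genes are not reported here. The single array per group limits the precision.

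On simulated data for this comparison, in a step of 16165 genes, 50 of 50 genes at each log2 change of -2.5, -1.5, 1.5 and 2.5 passed 2-fold, as did 4 of 15965 unchanged genes. Both simulated arrays were made from the WT values, and the simulated noise held no variation between animals. The changed genes were all above a level of -3, and no change as small as those of the markers was simulated. The recovery therefore says nothing on dim genes or on differences of that size. Alternatives are those of the closing section. Normexp (offset 50) was run on median spot and background signals, as mean spot signals were not at hand. Python 3.11.15 (numpy 2.4.6, pandas 2.3.3, matplotlib 3.10.9) and R 4.3.3 (limma 3.58.1) were used.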

Additional observations from a re-analysis of the deposited data

How the results depend on the processing

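There were 11 alternatives: scaling to the median or to the 75th percentile of detected probes, quantile normalization, cyclic loess, normexp background with quantile or 75th percentile scaling, the deposited series table, averaging a gene's probes, no background filter, genes above a level of -3 alone, and outlier spots kept. None of them put a marker past 2-fold, and the median of the markers kept within 0.082 of its reported value, the median SD between replicate spots, in all but median scaling. The series table, averaging of probes, the changed filters and outlier spots kept could not move a marker with 1 probe of 1 spot. Median scaling added 0.18 to every difference, so that the median of the markers was 0.159. It left 0 of 10 markers and 22.5% of all named genes negative. It moved the medians to 0.245 for other transcription factors, 0.194 for type and transmission genes, 0.149 for axonal genes, 0.46 for injury genes, 0.126 for amacrine, 0.026 for horizontal, 0.044 for glial, -0.071 for smooth muscle and -1.924 for lens markers, and to 0.028 for T cell markers. The T cell median was also 0.01 and -0.065 with normexp background and quantile or 75th percentile scaling, and the cause was not tested. With no background filter it was -0.255, and the glial median was -0.227. These medians covered 8 T cell genes in place of 5 and 13 glial genes in place of 11. The added genes, not above background on at least 1 array, all had negative differences. Above a level of -3 the horizontal cell median was -0.033, with fewer genes in it. Counts of all named genes past 2-fold were 281 lower and 100 higher for Mef2d KO as reported, against 171 and 151 with median scaling, 165 and 156 with quantile normalization, 163 and 154 with cyclic loess, 95 and 63 or 103 and 61 with normexp background, 117 and 77 above a level of -3, and 1740 and 225 with no background filter. No paired analysis was possible because each group has 1 array. At or below a level of -3 the SD between replicate spots was 0.38, so dim genes such as Atoh7 are read less surely than the markers.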

Other observations

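Genes that ganglion cells switch on after axon injury had mostly positive differences. Of 12 listed genes, 11 were read on both arrays, none was 2-fold apart and 2 were negative (0 with median scaling). Of all named genes, 51.2% were negative (22.5% with median scaling). The median of the list was 0.28, beside -0.006 over all named genes. Atf3, a stress-induced transcription factor, had an intensity of 364 on the Mef2d KO array, against 192 in WT (difference 0.84 ± 0.21, and past 2-fold with median scaling). Ecel1, an endopeptidase-like protein of injured neurons, had 398 on the Mef2d KO array, against 263 in WT (difference 0.51 ± 0.21). Gal, the galanin precursor, differed by -0.12 ± 0.20 and Gap43 by -0.067 ± 0.20. Sprr1a, a protein of regenerating axons, was not above background on either array. Sox11 and Gap43 are also counted in other lists, and most genes of this list act in other retinal cells too, so the values are not those of ganglion cells alone. The 10 ganglion cell markers had a median of -0.019 on the same arrays.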
